A study of Homo sapiens with 6 samples.

Results

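Transcripts of the cGAS-STING pathway and its cofactors were measured in CAL51 cells, an established human triple-negative breast cancer line. The genes were chosen by name: STING1, TBK1, IRF3, MAVS, DDX41, PQBP1, TRIM56, ZCCHC3 and ENPP1, with CGAS to be added if it had a row of its own. Of these 10 symbols 9 were matched among the 14788 rows of the log2 CPM table, and all 9 passed the filter on low values. CGAS was not analysed here. The 6 libraries formed 3 groups of 2. Control cells are described in the labels only as CAL51 control, and the sources used here do not give whether they carried a guide or an active Cas9. KO-1 and KO-2 cells carried different guide RNAs against TREX1, delivered by a CRISPR v2 lentivirus, with no drug treatment named for any group. A text deposited with the tables speaks of several knockout clones, but does not say which library is which clone. A change in a knockout group may therefore belong to a clone. The labels do not call the 2 libraries of a group separate cultures. The p-values thus reflect the spread of these libraries alone, and that spread may be technical.

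cGAS binds double-stranded DNA in the cytosol and makes the cyclic dinucleotide cGAMP, which binds STING on the endoplasmic reticulum. STING then moves to the Golgi and recruits the kinase TBK1, which phosphorylates the transcription factor IRF3, and IRF3 turns on type I interferon genes. MAVS, on mitochondria, feeds the same kinase and transcription factor from the RNA sensors RIG-I and MDA5. TREX1 is an exonuclease that removes cytosolic DNA before cGAS meets it. Most steps of this pathway are set by ligand and phosphorylation, so transcript levels show how much of each component could be made and not whether the pathway was active.

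The shallowest library, KO-2 replicate 1, held 13222933 reads and the deepest, control replicate 2, held 25785055. TREX1 itself was not analysed here, so the labels were not checked against the targeted gene. In that shallow KO-2 library 61 genes had 0 reads, while the other 5 libraries had 5 to 16 such genes. The KO-2 pair also differed the most, by a chi-square of 8.54 for each degree of freedom, where control had 3.68 and KO-1 had 3.01. Of the receptor genes that define the subtype only ERBB2 was measured, at 163 to 199 CPM, while ESR1 and PGR were not analysed here. All 5 epithelial markers were measured, from CDH1 at 28.5 to 42.3 CPM up to KRT8 at 760 to 973 CPM. Their summed level was 1764 and 1802 CPM in control and 2170 to 2214 CPM in the 4 knockout libraries, so it moved with the knockout groups, and its part in the results was not tested.

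Per length of annotated exon, 7 of the 9 members lay within a narrow band and 2 lay well below it. STING1 was the most abundant in control cells, at 23.4 ± 0.49 CPM per kb (SD, n = 2). DDX41 followed at 20.2 ± 0.92, MAVS at 19.0 ± 0.59, ZCCHC3 at 18.1 ± 2.0 and PQBP1 at 17.5 ± 1.1 CPM per kb. IRF3 stood at 13.7 ± 0.49 and TBK1 at 12.8 ± 0.50 CPM per kb. TRIM56 came next at 4.24 ± 0.45 CPM per kb. ENPP1 was the lowest at 0.366 ± 0.0061 CPM per kb, 11.6-fold under TRIM56. Over all 6 libraries the ranges of neighbours in this order overlapped for STING1 and DDX41, for MAVS and ZCCHC3, for ZCCHC3 and PQBP1, and for IRF3 and TBK1. The gap from TBK1 to TRIM56 was 3.02-fold in control and was not bridged in any library. These levels rest on the exon lengths of GENCODE release 29, which may not be the annotation the authors counted with, and transcripts that lack part of the annotated exons would be understated.

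**Figure D1:**
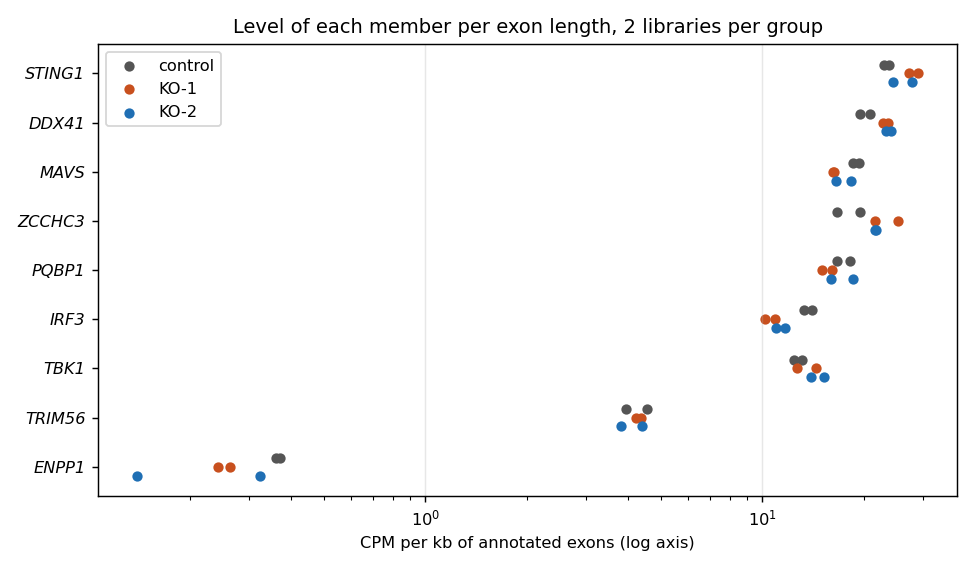
CPM per kb of annotated exons (log axis) of each member in the 6 libraries, ordered by the control mean, with grey points for control, orange for KO-1 and blue for KO-2. STING1 tops the order at 23.4 in control and ENPP1 ends it at 0.366, and in no gene do the groups differ by as much as TRIM56 differs from TBK1.

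Against control, 5 of the 9 members were called in KO-1 and 1 in KO-2. With KO-1, STING1, the cofactors DDX41 and ZCCHC3 rose, and IRF3 and MAVS fell. With KO-2, DDX41 rose, and the other 4 had the same sign as with KO-1 but did not pass the test. For the mean of both guides the calls were the 5 of KO-1, with 3 higher and 2 lower. The largest of the called changes were a rise of 1.30-fold (ZCCHC3) and a fall to 0.771 times control (IRF3), both with KO-1. Called means an adjusted p below 0.05 from limma, with the Benjamini-Hochberg method over the 13765 genes tested. Over all genes 29.7% were called with KO-1 (14.6% higher, 15.1% lower), 16.9% with KO-2 (8.73% higher, 8.19% lower) and 29.6% for the mean of both guides (14.6% higher, 14.9% lower), so calls were common in this data set. The members' median absolute log2 fold change was 0.22 with KO-1 and 0.19 with KO-2, beside 0.22 and 0.18 over all genes tested. In these bulk libraries fewer cells with a transcript and less of it per cell cannot be told apart. By their median absolute change the members moved about as much as a typical gene tested, with no matching for expression level. The KO-1 and KO-2 comparisons share their control libraries, so a like sign in both is not independent evidence.

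**Figure D2:**
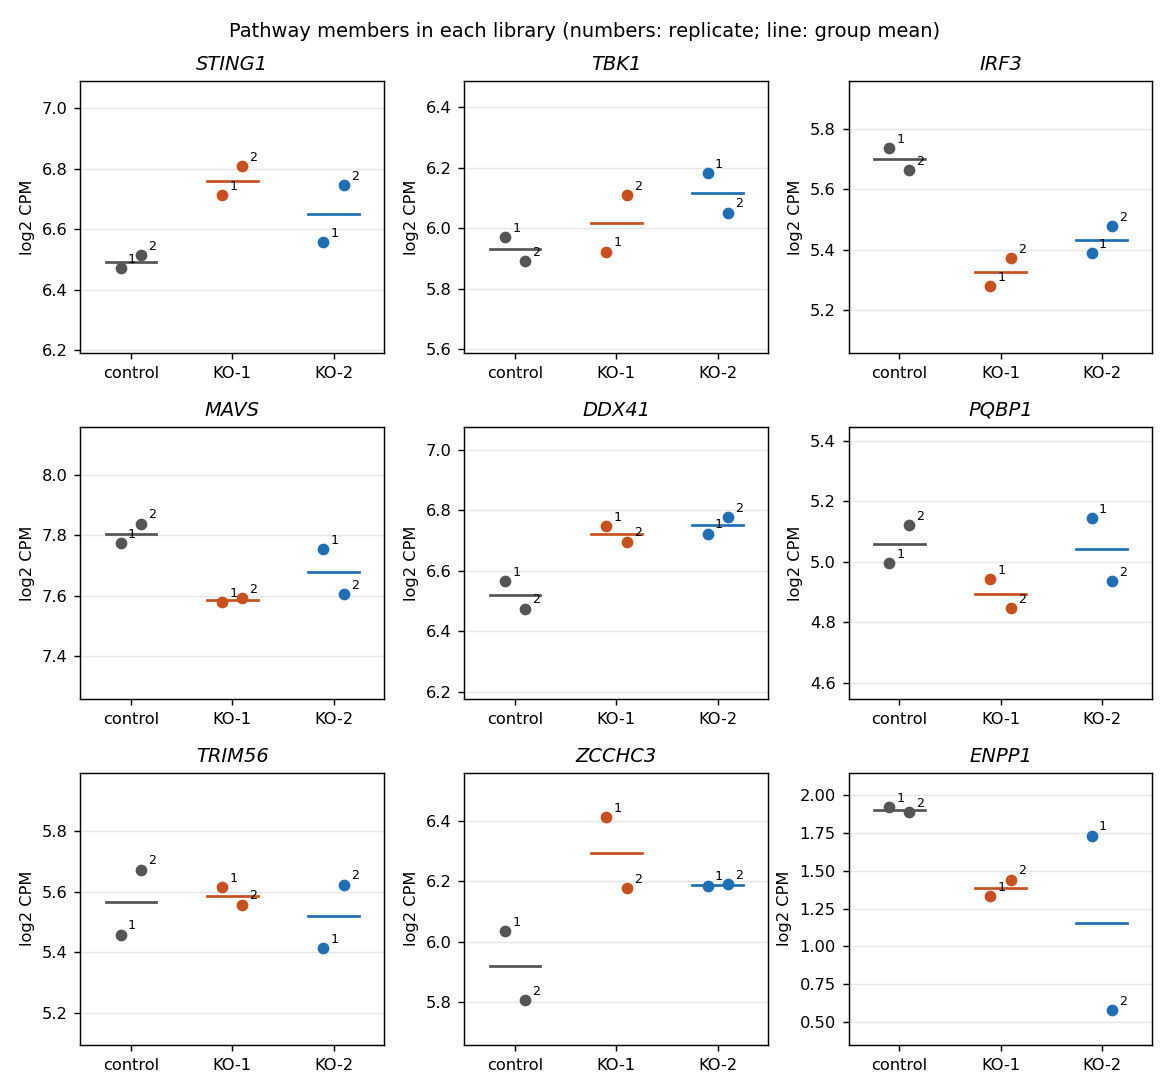
log2 CPM of each member (vertical axis, spanning 0.9 units in every panel but ENPP1, which spans 1.8) in control, KO-1 and KO-2, with 1 point per library, its replicate number beside it and the group mean as a line. IRF3 sits lower in all 4 knockout libraries, at 5.28 to 5.48 against 5.66 and 5.74 in control, and the KO-2 libraries of ENPP1 lie far apart.

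STING1, the adaptor that cGAMP binds, lies on chromosome 5 from 139475534 to 139482935 (hg38, minus strand). Its log2 CPM was 6.47 and 6.51 in control, 6.71 and 6.81 in KO-1, and 6.56 and 6.74 in KO-2. All 4 knockout libraries lay above both control libraries, KO-2 replicate 1 by the least. With KO-1 STING1 rose 1.20-fold, or 0.27 ± 0.08 on the log2 scale (± SE), with an adjusted p of 0.024. With KO-2 its log2 fold change was 0.16 ± 0.08 (adjusted p = 0.19), with a 95% interval from -0.01 to 0.33. The KO-2 libraries set that value unequally, at 0.25 without KO-2 replicate 1 and 0.064 without KO-2 replicate 2, each from a lone KO-2 library. That KO-1 call did not survive leaving out control replicate 1 or 2 (adjusted p = 0.17 and 0.10) or KO-1 replicate 1 or 2 (0.080 and 0.19), and it was also lost with no mean-variance trend (0.11). The counts behind these values ran from 1226 to 2384 reads per library.

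TBK1, the kinase that STING and MAVS both recruit, lies on chromosome 12 from 64451880 to 64502108 (plus strand). In control the log2 CPM of TBK1 was 5.97 and 5.89, beside 5.92 and 6.11 in KO-1, and 6.18 and 6.05 in KO-2. KO-1 replicate 1 fell between the control libraries, while both KO-2 libraries lay above them. The log2 fold change was 0.08 ± 0.09 with KO-1 (adjusted p = 0.50) and 0.19 ± 0.09 with KO-2 (adjusted p = 0.17). The 95% intervals, -0.11 to 0.28 and -0.01 to 0.38, leave room for at most a 1.30-fold increase. The KO-2 value was 0.25 without KO-2 replicate 2 and 0.12 without KO-2 replicate 1, each from a lone KO-2 library. The annotation places an antisense transcript, AC135279.3, across 702 bases or 14.7% of the exons of TBK1, and it was not analysed here.

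IRF3, the transcription factor at the end of the pathway, lies on chromosome 19 from 49659569 to 49665875 (minus strand) and had the largest called fall. Its log2 CPM was 5.74 and 5.66 in control, 5.28 and 5.37 in KO-1, and 5.39 and 5.48 in KO-2. Every knockout library was below both control libraries, and the KO-2 pair lay just above the KO-1 pair. The log2 fold change was -0.37 ± 0.08 with KO-1 (adjusted p = 0.0072), a level of 0.771 times control. With KO-2 it was -0.27 ± 0.08, which missed the threshold (adjusted p = 0.053). It passed with a stricter filter on low values (0.047) and with voom on recovered reads (0.047). Without KO-2 replicate 2, which leaves a lone KO-2 library, the KO-2 value was -0.31. In the other 12 alternatives IRF3 was not called with KO-2, with an adjusted p of up to 0.34. Leaving out control replicate 1 ended the KO-1 call (adjusted p = 0.099), as did leaving out KO-1 replicate 1 (0.084), and it held with no mean-variance trend.

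The exons of IRF3 share 734 bases, 19.35% of their length, with those of BCL2L12, a BCL2 family gene on the opposite strand. No source used here names the strand setting of the counting, so reads of the 2 genes in that stretch may not be told apart. BCL2L12 had a log2 CPM of 5.04 and 5.06 in control, 4.89 and 4.97 in KO-1, and 4.79 and 5.06 in KO-2. Its log2 fold change was -0.13 ± 0.11 with each guide (adjusted p = 0.41 with KO-1 and 0.45 with KO-2). BCL2L12 thus lay lower in the same direction by less than its own error allows to call, and its part in the value of IRF3 was not tested.

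MAVS, the mitochondrial adaptor of RNA sensing, lies on chromosome 20 from 3846799 to 3876123 (plus strand). The log2 CPM of MAVS was 7.77 and 7.84 in control, 7.58 and 7.59 in KO-1, and 7.75 and 7.60 in KO-2. The KO-1 libraries were nearly equal and lower than control, while KO-2 replicate 1 lay only just under control replicate 1. MAVS fell with KO-1, with a log2 fold change of -0.22 ± 0.06 (adjusted p = 0.023), on 2814 to 5970 reads per library. With KO-2 the value was -0.13 ± 0.06 (adjusted p = 0.20). From a lone KO-2 library it was -0.20 without KO-2 replicate 1 and -0.051 without KO-2 replicate 2. The KO-1 call depended on the scaling, since with library medians set equal the value was -0.17 (adjusted p = 0.068). It was also lost with no mean-variance trend (0.12), without control replicate 1 or 2 (0.089 and 0.19) and without KO-1 replicate 1 or 2 (0.14 and 0.13).

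DDX41, a DEAD-box helicase that has been described both as a DNA sensor upstream of STING and as a splicing factor, lies on chromosome 5 from 177511577 to 177517469 (minus strand). The libraries gave a log2 CPM of 6.57 and 6.47 in control, 6.75 and 6.70 in KO-1, and 6.72 and 6.78 in KO-2. The 4 knockout libraries formed 1 band above both controls, with no order between the guides. DDX41 rose by 0.20 ± 0.07 with KO-1 (adjusted p = 0.042) and by 0.23 ± 0.07 with KO-2 (adjusted p = 0.038). It was the member called with each guide, but neither call held with no mean-variance trend (0.12 and 0.13) or without control replicate 1 (0.11 and 0.14) or 2 (0.31 and 0.31). Leaving out KO-1 replicate 1 or 2 also ended the call for KO-1 (0.23 and 0.13) and, through the shared estimate of spread, for KO-2 (0.086 for each).

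MAVS and DDX41 are the called members with a promoter window in RefSeq (GRCh38.p14), the 250 bases before the RefSeq start. GENCODE release 29 starts both genes further upstream, MAVS by 35 bases and DDX41 by 508 bases, so the whole DDX41 window lies within the gene as located above and its sequence is not shown. For MAVS the 215 bases before the GENCODE start are shown, with the GC box in capitals.
MAVS, chr20:3846584-3846798, plus strand: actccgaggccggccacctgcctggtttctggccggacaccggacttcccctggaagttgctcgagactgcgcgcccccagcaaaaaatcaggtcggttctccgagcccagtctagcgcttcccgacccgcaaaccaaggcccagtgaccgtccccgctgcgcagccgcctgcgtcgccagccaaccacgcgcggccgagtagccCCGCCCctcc
6 motifs were searched on both strands of the RefSeq windows: the cAMP response element core TGACGT, the E-box CACGTG, the GC box GGGCGG, the ETS site CCGGAAG, the interferon-stimulated response element and the p53 half-site. Overlap between motifs was allowed. MAVS held 2 GC boxes, both on the reverse strand and starting 45 and 9 bases before the RefSeq start, and none of the other motifs. The box nearer to the gene lies past the GENCODE start, and the other is the one shown. The DDX41 window held none of the 6. Over all 27305 promoters of this length the GC box was present in 42.3%, the ETS site in 8.82%, the cAMP element core in 7.42%, the E-box in 6.49%, the p53 half-site in 5.53% and the interferon element in 3.07%. GC content of the windows was 70.4% for MAVS and 59.6% for DDX41, beside a median of 58.0% over all promoters.

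ZCCHC3, a zinc finger protein described as a co-sensor that helps cGAS bind DNA, lies on chromosome 20 from 296968 to 300321 (plus strand). ZCCHC3 had a log2 CPM of 6.04 and 5.81 in control, 6.41 and 6.18 in KO-1, and 6.19 and 6.19 in KO-2. The knockout libraries all lay above control, although the libraries of the control pair and of the KO-1 pair were well apart. With KO-1 it rose 1.30-fold, by 0.37 ± 0.10 (adjusted p = 0.015), the largest called rise among the members. With KO-2 the value was 0.27 ± 0.10 (adjusted p = 0.086). It was 0.27 without KO-2 replicate 1 and 0.26 without KO-2 replicate 2, each from a lone KO-2 library. Without control replicate 2 it was 0.15. Leaving out control replicate 2 ended the KO-1 call (adjusted p = 0.18), as did leaving out KO-1 replicate 1 (0.18) or fitting no mean-variance trend (0.097).

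PQBP1 and TRIM56, also linked to cGAS, were not called in any comparison. PQBP1, a polyglutamine binding protein that links cGAS to retroviral DNA, lies on chromosome X from 48897912 to 48903143 (plus strand). PQBP1 had a log2 CPM of 5.00 and 5.12 in control, 4.94 and 4.85 in KO-1, and 5.14 and 4.94 in KO-2. Both KO-1 libraries were below control and the KO-2 libraries straddled it, with log2 fold changes of -0.16 ± 0.10 (adjusted p = 0.27) and -0.02 ± 0.10 (adjusted p = 0.92). TRIM56, a ubiquitin ligase that modifies cGAS and STING, lies on chromosome 7 from 101085439 to 101097967 (plus strand). Its log2 CPM was 5.46 and 5.67 in control, 5.61 and 5.56 in KO-1, and 5.41 and 5.62 in KO-2. The control pair spanned nearly the whole range of TRIM56, and its log2 fold changes were 0.02 ± 0.10 with KO-1 (adjusted p = 0.90) and -0.05 ± 0.10 with KO-2 (adjusted p = 0.79). The 95% intervals for TRIM56 lay between -0.27 and 0.24, from 0.829 to 1.18 times control.

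ENPP1, the membrane enzyme that hydrolyses cGAMP outside the cell, lies on chromosome 6 from 131808016 to 131895155 (plus strand). ENPP1 had a log2 CPM of 1.92 and 1.89 in control, 1.33 and 1.44 in KO-1, and 1.73 and 0.58 in KO-2. Those values rested on 86 and 94 reads in control, 40 and 48 in KO-1, and 42 and 28 in KO-2. All 4 knockout libraries were below control, KO-2 replicate 2 by far the most. The log2 fold change was -0.52 ± 0.35 with KO-1 (adjusted p = 0.29) and -0.75 ± 0.35 with KO-2 (adjusted p = 0.17). The KO-2 value was set by its 2 libraries in very different measure, at -1.33 without replicate 1 and -0.17 without replicate 2. Each of these values rests on a lone KO-2 library, so no p is given for them. For the mean of both guides ENPP1 stood at -0.63 (adjusted p = 0.14). That value became -0.92 without KO-2 replicate 1 and -0.35 without KO-2 replicate 2. At this depth the 95% interval with KO-1, from -1.29 to 0.25, could not tell a fall to 0.410 times control from no fall.

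**Figure D3:**
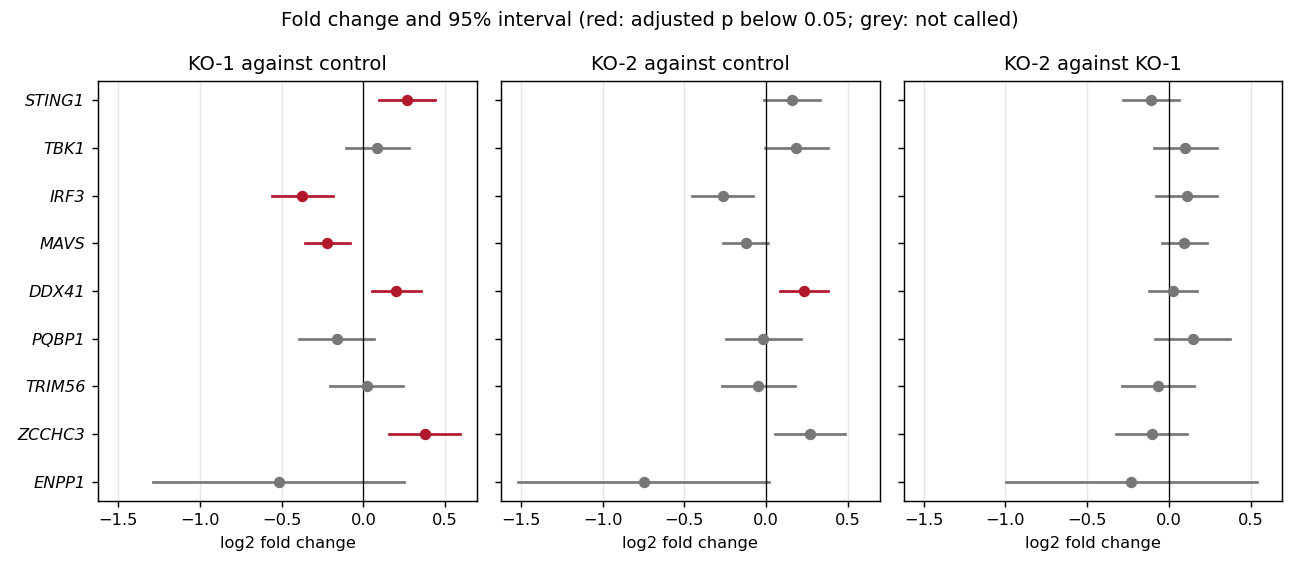
log2 fold change (horizontal axis, points) and 95% interval (lines) of each member for each guide against control and for KO-2 against KO-1, with called genes in red and others in grey. KO-1 has 5 red genes and KO-2 has DDX41 alone, while the interval of ENPP1 is several times wider than any other.

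The direct comparison of the guides found no member that differed. By limma 0 of 9 were called for KO-2 against KO-1, 0 had an unadjusted p below 0.05 and voom on recovered reads also called 0, where 1.14% of all genes tested were called (0.334% higher, 0.806% lower). For 8 members the 95% intervals lay between -0.32 (ZCCHC3) and 0.38 (PQBP1), so a difference between the guides of up to about that size was not excluded. For ENPP1 the interval ran from -0.999 to 0.54. Without KO-2 replicate 2, which leaves a lone KO-2 library that is assumed to vary like the others, STING1 was lower in KO-2 than in KO-1 by -0.20 (adjusted p = 0.031) and MAVS higher by 0.17 (adjusted p = 0.024). Without KO-2 replicate 1 these differences were -0.015 and 0.019 (adjusted p = 0.92 and 0.87). The smaller number of members called with KO-2 is thus not by itself a difference between the guides.

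Counted by library order, 3 members (STING1, DDX41, ZCCHC3) had all 4 knockout libraries above both control libraries and 3 (IRF3, MAVS, ENPP1) had all 4 below. That is 6 of 9, where 46.3% of all genes tested were set apart in this way, 22.3% above and 24.0% below. With KO-1 alone 3 members lay above and 4 below, 7 of 9 beside 71.7% of all genes (35.5% above, 36.2% below). With KO-2 alone 4 lay above and 3 below, 7 of 9 beside 59% of all genes (28% above, 30.9% below). Between the guides IRF3 and MAVS had both KO-2 libraries above both KO-1 libraries, 2 of 9 beside 44.2% of all genes (22.3% above, 21.9% below). The members were thus set apart more often than genes at large against control and less often between the guides. With 9 genes such gaps cannot be judged. The authors' deposited table gave the same call as limma for 9 of 9 members in each of its 3 comparisons. The fold changes in the authors' deposited table and those given here differed by at most 0.04 on the log2 scale.

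The calls for the mean of both guides were sensitive to single libraries. Each fit with a library left out leaves a lone library in that group, which is assumed to vary like the others. The share of all genes called in such a fit is not given here. As reported 5 members were called, and 6 were without KO-2 replicate 1 or 2, but 1 was without control replicate 1 (ZCCHC3), 0 without control replicate 2, 1 without KO-1 replicate 1 (IRF3) and 2 without KO-1 replicate 2 (IRF3 and ZCCHC3). The signs of the 5 called members were the same under all 15 alternatives. IRF3 was called in 13 of the 15, ZCCHC3 in 12, DDX41 in 10, STING1 in 9 and MAVS in 7.

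**Figure D4:**
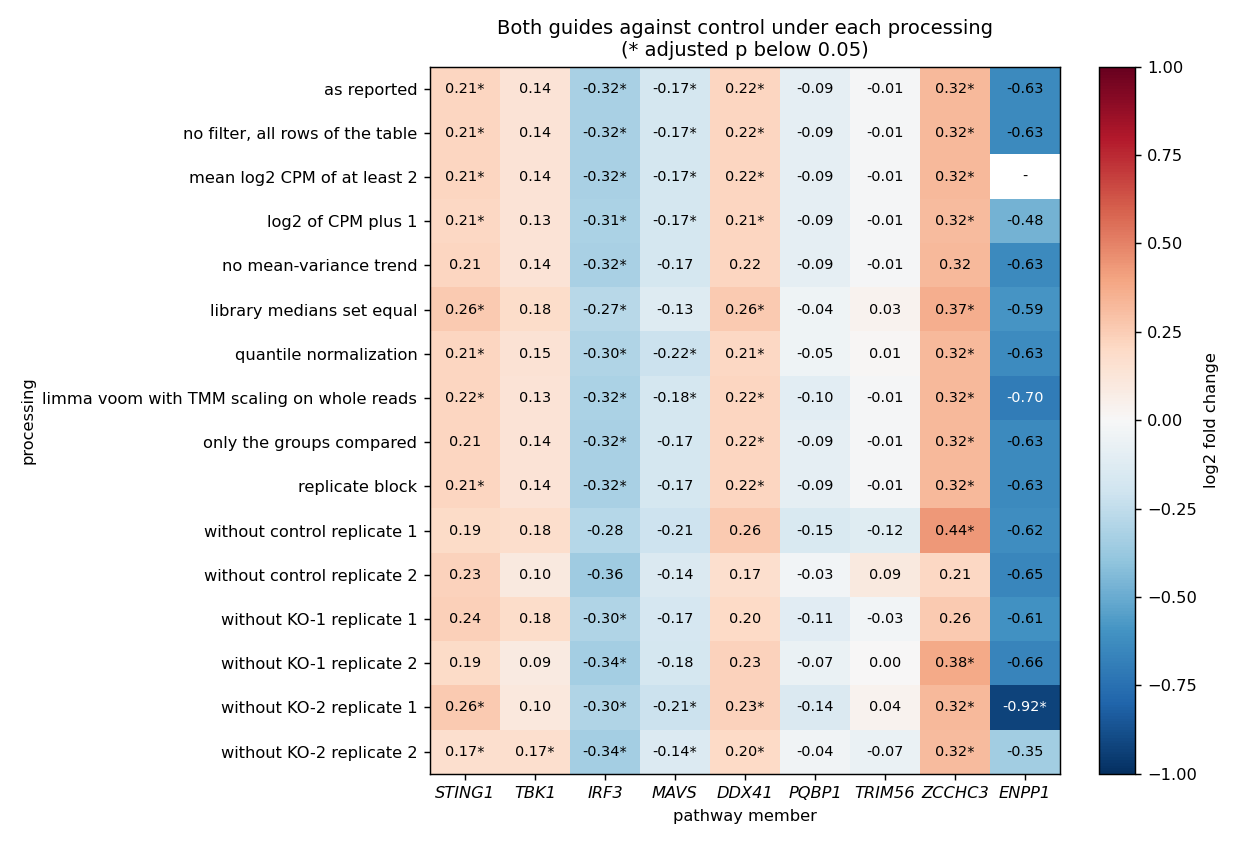
log2 fold change of each member (columns) for the mean of both guides against control under each processing (rows), coloured from blue for lower to red for higher, with a star at an adjusted p below 0.05 and a dash where ENPP1 was filtered out. The 5 called members keep their colour in every row, while most stars are lost without a control or a KO-1 library or with no mean-variance trend.

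The wider pathway was described through 7 lists of 169 other genes, of which 145 were tested. For the mean of both guides 22 rose and 20 fell, or 28.97% called, beside 29.6% of all genes tested. The split depended on the scaling, with 32 higher and 13 lower once library medians were set equal. That scaling also moved the median of all genes, from -0.01 to 0.036. As reported the median log2 fold change of the wider genes was 0.04, beside -0.01 over all genes. With KO-1 23 rose and 20 fell, and with KO-2 12 rose and 10 fell (15.2%, beside 16.9% of all genes). The share called in the wider pathway was thus near that of the data set. With a library left out the share of all genes called is not given here. The swings in the counts below can thus not be read as particular to the pathway. By limma 0 of 145 were called for KO-2 against KO-1, with 24 at an unadjusted p below 0.05 beside 2381 of the 13765 genes tested, and voom also called 0. Without KO-2 replicate 1 that count was 9, and without KO-2 replicate 2 it was 32. For the mean of both guides the count of 42 dropped to 8 without control replicate 1, 13 without control replicate 2, to 27 without KO-1 replicate 1 and to 23 without KO-1 replicate 2, and it grew to 66 without either KO-2 library. With KO-1 the count of 43 became 13 without control replicate 1, 18 without control replicate 2, 19 without KO-1 replicate 1 and 15 without KO-1 replicate 2, and it grew to 67 without KO-2 replicate 1 and 68 without KO-2 replicate 2. With KO-2 the count of 22 became 3 and 6 without control replicates 1 and 2, 10 without either KO-1 library, 42 (24 higher, 18 lower) without KO-2 replicate 1 and 46 without KO-2 replicate 2.

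**Figure D5:**
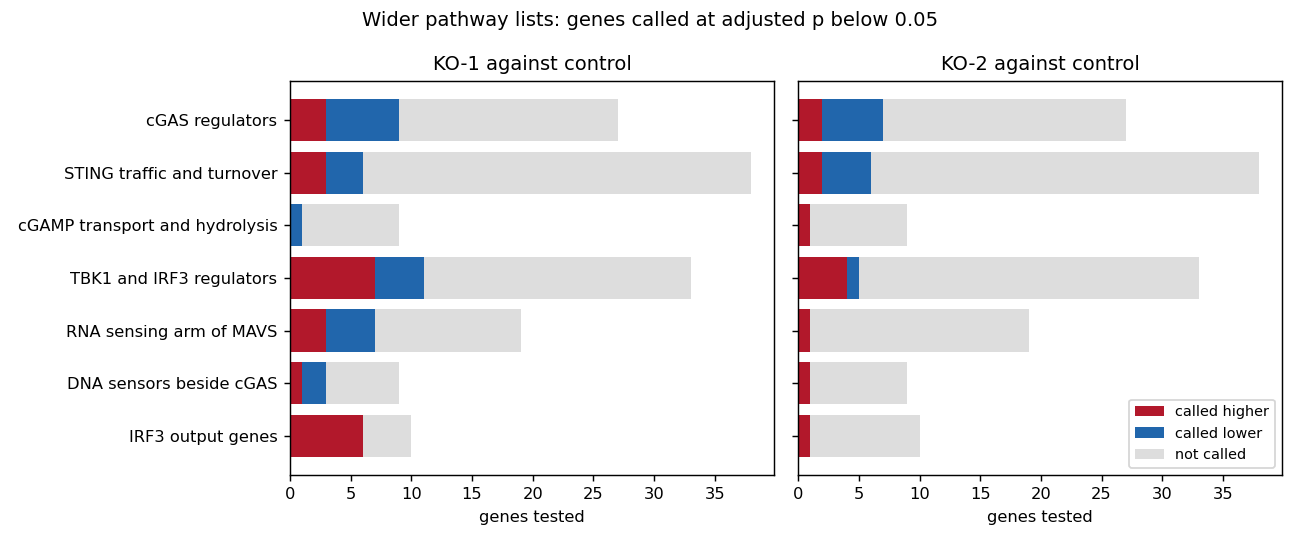
Number of genes tested in each of the 7 wider lists (bars), split into called higher (red), called lower (blue) and not called (grey), for KO-1 and KO-2 against control. Most genes of every list but the IRF3 output genes with KO-1 are grey, and red and blue both appear in most lists with KO-1.

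Among 27 tested regulators of cGAS, 3 rose and 6 fell for the mean of both guides, with a median of 0.05. That is 33.3% called, beside 29.6% of all genes tested, and with KO-2 alone 25.9%, beside 16.9%. HDAC3, a histone deacetylase, fell by 0.64 ± 0.07 (adjusted p = 0.00010) and was the largest change of this list. Its log2 CPM was 6.30 and 6.40 in control, 5.70 and 5.62 in KO-1, and 5.74 and 5.79 in KO-2, so that no knockout library came near control. The kinase AKT1 fell by 0.28 and the mitotic kinase AURKB by 0.29, both described as inhibitors of cGAS by phosphorylation. AURKB fell by 0.41 with KO-1, and with KO-2 it stood at -0.17 and was not called (adjusted p = 0.12). HEXIM1, an inhibitor of transcription elongation, rose by 0.29, the ubiquitin ligase MARCHF8 by 0.34, and BANF1, which competes with cGAS for DNA, by 0.18. MARCHF8 was not called with KO-2 alone (adjusted p = 0.15), nor BANF1 with KO-1 alone (0.22). Without control replicate 1 the calls of AKT1 (adjusted p = 0.060), AURKB (0.064), HEXIM1 (0.079), MARCHF8 (0.14) and BANF1 (0.33) were lost. Without control replicate 2 those of AURKB (0.090), MARCHF8 (0.10) and BANF1 (0.15) were lost, and without KO-1 replicates 1 and 2 that of BANF1 (0.073 and 0.15) and, without the first, of MARCHF8 (0.053).

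Of 38 tested genes of STING traffic and turnover, 2 rose and 4 fell, with a median of 0.03. That is 15.8% called, beside 29.6% of all genes tested. STIM1, the calcium sensor that holds STING in the endoplasmic reticulum, fell by 0.38 ± 0.07 (adjusted p = 0.0035), from 5.86 and 5.72 in control to 5.54 and 5.55 in KO-1 and 5.33 and 5.23 in KO-2. USP13, a deubiquitinase that acts on STING, fell by 0.49 and SEC23B, a subunit of the COPII coat that carries cargo to the Golgi, by 0.33. ZDHHC7, 1 of the enzymes that palmitoylate STING, rose by 0.26 and the Golgi GTPase ARF1 by 0.19. With KO-1 alone STIM1 and ARF1 just missed the threshold (adjusted p = 0.0504 and 0.053). The calls of STIM1 (adjusted p = 0.10), SEC23B (0.086), ARF1 (0.10) and ZDHHC7 (0.10) were lost without control replicate 1, and those of USP13 (0.070), ARF1 (0.17) and ZDHHC7 (0.063) without control replicate 2. ARF1 also lost its call without KO-1 replicates 1 and 2 (0.068 and 0.067). Of 9 tested genes of cGAMP transport and hydrolysis, 1 rose and 1 fell (22.2% called, beside 29.6% of all genes tested). LRRC8D, a subunit of a volume-regulated anion channel, rose by 0.18 and ABCC1, an exporter of cGAMP, fell by 0.16. LRRC8D was called with KO-2 but not with KO-1 (adjusted p = 0.30), and ABCC1 with KO-1 but not with KO-2 (0.34). Both lay at the threshold (adjusted p = 0.048 each) and lost their call without either control library (0.25 each for LRRC8D, 0.22 and 0.28 for ABCC1) and without either KO-1 library (0.12 and 0.13, 0.089 and 0.17).

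Among 33 tested regulators of TBK1 and IRF3, 7 rose and 4 fell, with a median of 0.10. That is 33.3% called, beside 29.6% of all genes tested, and with KO-2 alone 15.2%, beside 16.9%. CYLD, a deubiquitinase that restrains TBK1, rose by 0.65 ± 0.07 (adjusted p = 0.00014). It went from a log2 CPM of 4.93 and 4.88 in control to 5.65 and 5.62 in KO-1 and 5.46 and 5.50 in KO-2. TNFAIP3, which encodes the inhibitor A20 and is itself an NF-kB target, rose by 0.62, and TAX1BP1, its adaptor, by 0.25. TRAF3, a ubiquitin ligase that links MAVS to TBK1, fell by 0.39 and DTX4, which marks TBK1 for degradation, by 0.25. With KO-2 alone TAX1BP1 and DTX4 were not called (adjusted p = 0.064 and 0.10). The calls of TAX1BP1 (adjusted p = 0.071) and DTX4 (0.17) were lost without control replicate 1, and those of TAX1BP1 (0.15), TRAF3 (0.057) and DTX4 (0.24) without control replicate 2. Without KO-1 replicates 1 and 2 TAX1BP1 (0.054 and 0.052) was lost as well, and DTX4 without the latter (0.11).

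On the RNA sensing side of MAVS 3 of 19 tested genes rose and 4 fell, with a median of -0.05. That is 36.8% called, beside 29.6% of all genes tested, and with KO-2 alone 5.26%, beside 16.9%. OTUD4, a deubiquitinase that stabilises MAVS, rose by 0.47 ± 0.05 (adjusted p = 0.00014), with 6.64 in both control libraries, 7.08 and 7.06 in KO-1, and 7.15 and 7.14 in KO-2. The ubiquitin ligases SMURF1 and SMURF2, which target MAVS, rose by 0.26 and 0.36. SMURF1 rose by 0.44 with KO-1 and stood at only 0.071 with KO-2 (adjusted p = 0.60). The mitochondrial partners NLRX1 (-0.32), TOMM70 (-0.28) and MFN2 (-0.23) fell, beside MAVS itself. With KO-2 alone OTUD4 was the only gene of this list called, and MFN2 stood at -0.13 (adjusted p = 0.15). Without control replicate 1 SMURF1 (adjusted p = 0.23), SMURF2 (0.081), NLRX1 (0.15), TOMM70 (0.17) and MFN2 (0.078) lost their call, and without control replicate 2 SMURF1 (0.12), NLRX1 (0.17), TOMM70 (0.10) and MFN2 (0.10) did. TOMM70 lost it without KO-1 replicate 1 (0.085), and SMURF1 (0.093) and NLRX1 (0.084) without KO-1 replicate 2. RIGI and DHX58 fell below the filter on low values. Of 9 tested DNA sensors beside cGAS, 2 were called (22.2%, beside 29.6% of all genes tested). The helicase DHX9 rose by 0.24 (adjusted p = 0.0016) and the helicase DHX36 fell by 0.17 (adjusted p = 0.027). With KO-2 alone DHX36 was not called (adjusted p = 0.15). The call of DHX36 was lost without either control library (0.15 and 0.27) or either KO-1 library (0.087 each).

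Of 18 genes listed here as IRF3 output only 10 were tested. Among those 10, 5 rose and 0 fell for the mean of both guides, with a median of 0.49. Over all genes tested 14.6% were called higher. Like the other lists, this one was chosen with earlier results of these data known, so its share is a description and not a test. With KO-1 6 rose and with KO-2 1 rose, beside 14.6% and 8.73% of all genes. For KO-2 against KO-1 0 of 10 were called, with a median of -0.28. There 4 had an unadjusted limma p below 0.05, all lower in KO-2, beside 2381 of the 13765 genes tested in either direction. IFIT2, an antiviral translation inhibitor, was the member called with each guide. It stood at a log2 CPM of 0.93 and 1.51 in control, 2.17 and 2.40 in KO-1, and 2.23 and 2.13 in KO-2, a rise of 1.01 ± 0.22 on only 42 to 95 reads per library. IRF1, a transcription factor that interferon and NF-kB both induce, rose by 0.50 and PMAIP1, a pro-apoptotic gene that p53 also induces, by 0.47. IRF1 rose by 0.73 and PMAIP1 by 0.65 with KO-1, beside 0.28 and 0.29 with KO-2 (adjusted p = 0.23 and 0.17). The other 2, HERC5, the ligase of ISG15 (0.39), and ATF3, a general stress factor (0.84, with KO-2 replicate 1 at 1.07 below both controls), fall outside the rule for naming genes and were chosen after their values were seen. IFIT1 (0.02, adjusted p = 0.94), ISG15 (-0.16, 0.51), ZC3HAV1L (-0.10, 0.48), IFIT3 (0.53, 0.059) and ISG20 (0.83, 0.060) did not pass the test. These too fall outside the rule and were named after their values were seen. All knockout libraries of IFIT3 and ISG20 lay above control, and ISG20 was called with KO-1 (adjusted p = 0.047) on 18 to 52 reads per library. The interferon genes IFNB1, IFNL1, IFNL2 and IFNL3 were not analysed here. Without control replicate 1 the calls of IFIT2 (adjusted p = 0.13), IRF1 (0.16), HERC5 (0.071) and ATF3 (0.23) were lost, and without control replicate 2 those of IRF1 (0.091), PMAIP1 (0.23), HERC5 (0.23) and ATF3 (0.19). PMAIP1 (0.064) and ATF3 (0.092) lost theirs without KO-1 replicate 1, and HERC5 (0.067) and ATF3 (0.15) without KO-1 replicate 2.

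The genes whose log2 CPM ran most like that of 3 central members were looked up among 10185 others whose mean log2 CPM was 3 or more. Over the 6 libraries STING1 was most like CLCN6 (Pearson r = 0.995), PAQR5 (0.993) and RFX1 (0.993). TBK1 was most like BANP (0.987), ZNF232 (0.981) and MRPL48 (0.972). IRF3 was most like TECPR1 (0.998), MARS1 (0.998) and CCNJL (0.996). These correlations describe 6 libraries in 3 groups that share their depth and scaling, so no p is given. As the highest of 10185 values over so few libraries they can be high for any gene. Shared regulation was not tested.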

How the data were processed

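Expression was measured by poly(A) RNA sequencing in 6 libraries, 2 per group. Per the submitters' processing notes the series used fastp, STAR (2.7), featureCounts from Subread (2.0) and edgeR, with hg38 for human data; the sources used here name no annotation, strand setting or gene filter. The authors deposited log2 CPM values per library, and a table of their own comparisons with log2 fold changes, p-values and false discovery rates. Whole reads were recovered from the log2 CPM values after removing the shared prior of 0.102 CPM (100% whole within 0.01 reads). 1 read was worth 0.0383 to 0.0767 CPM, and a count of 0 allows up to 3 reads.

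Genes with log2 CPM of at least 0 in at least 2 libraries (13765) were fitted as deposited with limma (3.58.1, R 4.3.3): group means, mean-variance trend, all 6 libraries, 3 residual and 8.02 prior degrees of freedom, Benjamini-Hochberg adjustment over all genes tested. Errors after ± are the SD of 2 libraries or, for fold changes, the SE. Fold changes are of log2 CPM plus the prior, which understates changes of low genes. Alternatives were other filters, a pseudocount of 1 CPM, no trend, other scalings, voom on recovered reads, only the groups compared, a replicate block and each library left out. For the mean of both guides, only the groups compared stands for all 6 libraries with the knockout libraries as 1 group. Positions and exon lengths come from GENCODE release 29 (GRCh38), and promoters from RefSeq; those of CGAS, STING1, IRF3 and ZCCHC3 had no entry in the table. All members are named, and of each wider list up to 3 called genes per direction with the smallest p, of which 1 is not reported here. The members and lists were chosen with earlier results of these data known. Same-numbered libraries did not deviate together (r of deviations -0.05, 0.04 and -0.04), so replicate numbers were not treated as pairs.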

Additional observations from a re-analysis of the deposited data

How the results depend on the processing

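With no mean-variance trend the members called dropped to 1 for the mean of both guides, 1 for KO-1 and 0 for KO-2, and the wider pathway genes called to 21, 21 and 2. With only the groups compared the members called were 3 for the mean of both guides and 0 for KO-2, and the wider genes 67 for KO-1 and 13 for KO-2. For KO-2, 2 members were called under the stricter filter (mean log2 CPM at or above 2) and with voom. Leaving out 1 library at a time gave 0 to 6 members for the mean of both guides, 0 to 5 for KO-1, 0 to 5 for KO-2 and 0 to 2 between the guides, and 8 to 66, 13 to 68, 3 to 46 and 0 to 32 wider genes. Which libraries were pivotal is given with each result, and the cause was not tested. The share of all genes called under these settings is not given here, so the swings cannot be read as particular to the pathway. Under equal library medians MAVS, ABCC1, DTX4 and DHX36 lost their calls (adjusted p = 0.11, 0.16, 0.076 and 0.091). With library medians set equal the wider calls split 32 higher and 13 lower (mean of both guides), 33 and 15 (KO-1) and 19 and 6 (KO-2), in place of 22 and 20, 23 and 20, and 12 and 10. The median of all genes moved up as well, from -0.0103 to 0.0358, from -0.00346 to 0.0483 and from -0.0174 to 0.0231.

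Signs reversed in uncalled values only. With library medians set equal and quantile normalization, TRIM56 for the mean of both guides became 0.032 and 0.0099, and PQBP1 with KO-2 became 0.023 and 0.020. With 1 library left out, TRIM56 ran from -0.12 to 0.094 for the mean of both guides, -0.088 to 0.13 with KO-1, -0.15 to 0.060 with KO-2 and -0.17 to 0.038 between the guides. TBK1 ran from -0.0092 to 0.18 with KO-1 and PQBP1 from -0.12 to 0.086 with KO-2. Between the guides DDX41 ran from -6.5e-05 to 0.055, ZCCHC3 from -0.22 to 0.011 and ENPP1 from -0.81 to 0.35.

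With the replicate number as a block, the calls included 4 members for the mean of both guides (MAVS lost, adjusted p = 0.051), 4 for KO-1 and 0 for KO-2 (DDX41 lost in both, 0.062 and 0.058), and 38, 37 and 20 wider genes. The labels do not say whether the numbers mark pairs or batches, and the cause of these losses was not tested. Depth limits ENPP1 and IFIT2, at 28 to 94 and 42 to 95 reads per library.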

Other observations

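Mesenchymal markers, led by the matrix gene FN1 at 1317 to 1740 CPM, summed to 1493 and 1676 CPM in control and 1644 to 1936 CPM in the knockout libraries. VIM lay above control in every knockout library, at 78.3 and 73.2 CPM in control and 91.1 to 106.6 CPM in knockout. FN1, CDH2 and ZEB1 overlapped between control and knockout. PTPRC, the pan-leukocyte gene CD45, was measured at 15.4 to 20.2 CPM in every library. CD14 lay at 0.121 to 0.893 CPM and ITGAM at 0.536 to 1.24 CPM, and CD3E and CD68 were not analysed here. The summed level of the leukocyte markers was 17.7 and 16.0 CPM in control, 19.9 and 21.98 in KO-1, and 17.5 and 17.7 in KO-2. Endothelial markers summed to 23.2 and 21.4 CPM in control, against 18.3 to 19.7 in the knockout libraries. That fall was in CDH5, at 16.5 and 14.3 CPM in control and 10.9 to 13.2 CPM in the knockout libraries. VWF stayed at 3.97 to 4.61 CPM over all libraries, and PECAM1 was highest in KO-2 replicate 1, at 4.45 CPM beside 2.66 and 3.14 CPM in control. The part of these markers in the values of the pathway members was not tested.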
